A study of Daphnia magna with 48 samples.

Results

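Daphnia magna, a planktonic crustacean, was studied in 4 clones, of which FI and IL come from intermittent and HU and GB from permanent waters. The 50 transcripts described here were chosen by measured values, as those with the lowest ratio of acute severe hypoxia (ASH) to control in animals reared in normoxia. They are 50 of the 6050 transcripts with deposited read counts and 50 of the 2442 with at least 480 reads over all 48 samples. The choice used the normoxia-reared samples only, in which the reads of the 3 replicates of a clone and treatment were pooled and compared as log2((CPM ASH + 10)/(CPM control + 10)), CPM being reads per 1000000 reads of a sample. Of the 2442 transcripts, 189 (7.74%) had a log2 ratio below 0 in all 4 clones, and the 50 with the lowest mean over the clones are the members. The samples from chronic mild intermittent hypoxia (CMIH) took no part in the choice. In those samples their median ratio was close to that of the other transcripts and none was called lower, so that they are called here the normoxia-chosen transcripts rather than transcripts that fall with hypoxia.

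The animals were females, 25 days old, reared either at 8 mg O2/L (normoxia) or with the oxygen set 2 times a day to 4 mg/L (CMIH). ASH samples were kept for 12 h at about 1 mg O2/L, and controls stayed at the oxygen of their rearing. Each combination of clone, rearing and acute treatment had 3 samples, each a pool of 2 whole individuals, so that fewer cells of a type and less RNA per cell cannot be told apart. Each clone is 1 genotype with library preparations and sequencing runs not shared with the others, and clone and run cannot be told apart either.

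In Daphnia, as in other animals, a lack of oxygen stabilises hypoxia-inducible factor, which switches on genes such as those of haemoglobin, the extracellular oxygen carrier of the haemolymph. Animals short of oxygen are also known to save energy by slowing growth and protein synthesis, and transcripts of such costly processes can then be less abundant. The identifiers of the 50 members carry no description, and none of them was found in the RefSeq gene table, which leaves all of them without a gene name or function here. A member is called here by its contig and gene number, 11F7.133 being gene 7.133 on contig 11F of the assembly.

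Total reads per sample ranged from 16894 to 408355, which makes 3 reads of a transcript worth between 178 and 7.35 CPM, and p-values measure only the spread between these pools. The median ASH library was deeper than the median control library, with 175884 and 67564.5 reads after normoxia and 243963 and 101312 reads after CMIH. Within clones the order was reversed in IL after normoxia, with 444163 pooled ASH reads against 900347 in controls, and the depths were close in HU after CMIH, with 251334 against 233956. The shallowest clone was FI, in which the pooled normoxia-reared controls held 94192 reads and the median member 18.5 of them. The part of this low depth in the choice was not tested.

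The members were shorter than the other transcripts that could have been chosen, with a median length of 1752 bases (range 372 to 7196) against 2189.5 bases. They had 499 to 14858 reads in all, with a median of 961, close to the 1043 of the 2442 transcripts. Their median RPKM over the 48 samples, a level per length of transcript, ran from 9.28 in 18F10.69 to 734 in 8F29.120. They lay on 27 contigs, 8 of them (16.0%) on contig 0, which holds 8.07% of the 2442 transcripts. The annotation pipeline had built 36 of them with MAKER, 6 with GeneMark, 5 with SNAP alone and 3 with AUGUSTUS alone.

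The 50 members are not 50 independent measurements. The transcripts 59F0.50 and 324F0.14 had the same read count in each of the 48 samples and the same length of 1244 bases. The counts of 18F6.22 and 44F1.73 were identical in 37 of 48 samples, as were those of 76F2.99 and 201F0.21. These 3 pairs therefore share reads, cannot be separated by their counts, and amount to 47 distinct measurements.

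In the normoxia-reared samples, which chose the members, the mean log2 ratio ran from -1.18 in 11F7.133 to -0.47 in 18F13.74, with a median of -0.60. The medians for FI, IL, GB and HU were -0.98, -0.43, -0.28 and -0.42, and FI held the lowest ratio of 34 members, HU of 8, IL of 5 and GB of 3. Among all 189 transcripts below 0 in every clone, FI also held the lowest ratio most often, for 105, followed by IL for 35, HU for 31 and GB for 18. All 3 ASH samples lay under all 3 controls for 23 members in FI, 12 in IL, 8 in GB and 3 for HU, where the shares among the 2442 transcripts were 10.2%, 8.97%, 4.75% and 1.6%. At the end of the list the members 59F0.50, 324F0.14 and 18F13.74 had mean log2 ratios of -0.472, and the first transcripts left out, 0F35.23 and 28F10.5, had -0.470 and -0.466. No gap separated the members from the transcripts that followed.

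The question the CMIH-reared samples answer is whether the same transcripts are lower with ASH in animals that took no part in the choice. Their mean log2 ratio there had a median of -0.03 over the 50 members, with a range from -0.51 to 0.84, and of -0.02 over the 2442 transcripts. It was below 0 for 29 members (58.0%) and for 54.3% of the 2442. A ratio below 0 in all 4 clones was found for 1 member, 10F17.22, or 2.00% of the members against 5.53% of the 2442, and for 0 to 3 members when single samples were left out. The ratio was below 0 in 3 clones for 15 members, in 2 clones for 24, in 1 clone for 5 and in no clone for 5. The members were thus split about evenly around 0, as were the transcripts in general.

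**Figure D1:**
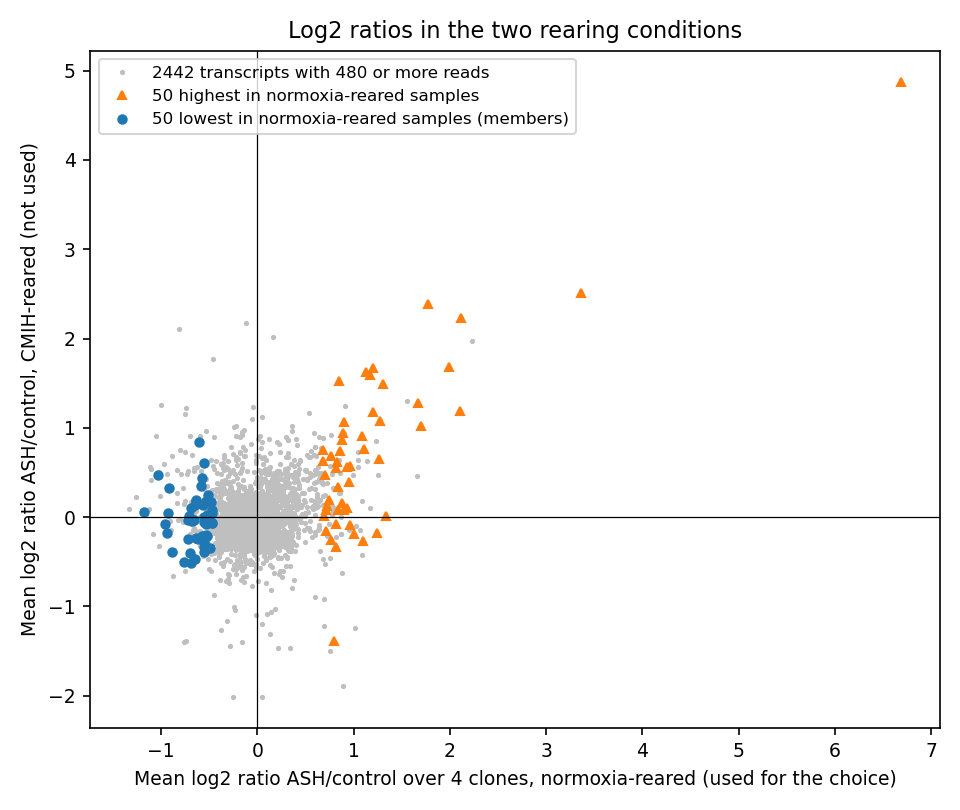
Mean log2 ratio of ASH to control over the 4 clones in the normoxia-reared samples (x axis, used for the choice) and the CMIH-reared samples (y axis, not used); each point is 1 transcript. The 50 members (circles) lie at or left of -0.47 by construction and between -0.51 and 0.84 on the y axis, while the 50 transcripts chosen at the other end by the same rule (triangles) have a median of 0.63 there.

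The same rule turned around gives the 50 transcripts with the highest ratio among those above 0 in all 4 clones of the normoxia-reared samples. Their mean log2 ratios after normoxia ran from 0.68 to 6.69, against -0.47 to -1.18 in the members. The lists are thus not matched in the size of the change that chose them. In the CMIH-reared samples 20 of the transcripts at this other end had a log2 ratio above 0 in every clone, against 5% of the 2442 transcripts, and their median mean ratio was 0.63. Among them were the hemoglobin precursors 11F0.55 and 3F39.53, with edgeR log2 fold changes of 6.01 ± 0.52 (SE) and 2.57 ± 0.23 after CMIH and adjusted p of 2.48e-07 and 2.96e-07. Of the members themselves, 5 had a ratio above 0 in every clone after CMIH, namely 23F3.36, 6F27.28, 23F18.64, 0F50.31 and 6F28.66.

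Each transcript was then tested in the 24 CMIH-reared samples with edgeR's quasi-likelihood F test, with clone and the difference in ASH between habitat types in the model and Benjamini-Hochberg adjustment over 6050 transcripts. No member was called lower (0 of 50) or higher (0 of 50) at an adjusted p under 0.05, and the adjusted p was 1 for every member. Among all transcripts 0.0165% were called lower and 0.298% higher. At an unadjusted p under 0.05, 0 members were lower, against 0.959% of all transcripts, and 3 were higher, against 3.12%. DESeq2 called 0 members as well and gave 0 lower and 3 higher at an unadjusted p under 0.05. The median log2 fold change of the members was 0.01, and that of all transcripts 0.05. It was negative for 22 of the 50 members (44%) and for 43.7% of all transcripts.

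The 95% interval of a member's fold change had a median half-width of 0.61 on the log2 scale, with a range from 0.34 to 2.51. For 25 members it reached down to the mean log2 ratio of the normoxia-reared samples, and for the other 25 it lay wholly above it. That ratio had been picked for being low, and the difference between the rearing conditions was therefore not tested. By these intervals a decrease of the size seen after normoxia was outside for 25 members and within for the other 25. The intervals were derived from the fold change and p, and edgeR raises p for transcripts less variable than Poisson counts. Some are therefore wider than the spread of the samples gives. The SEs for ASH and for its difference between habitat types were 0.31 and 0.61 in 23F3.36, but 0.64 and 0.44 in 0F71.26. The split into 25 and 25 depends on this derivation.

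**Figure D2:**
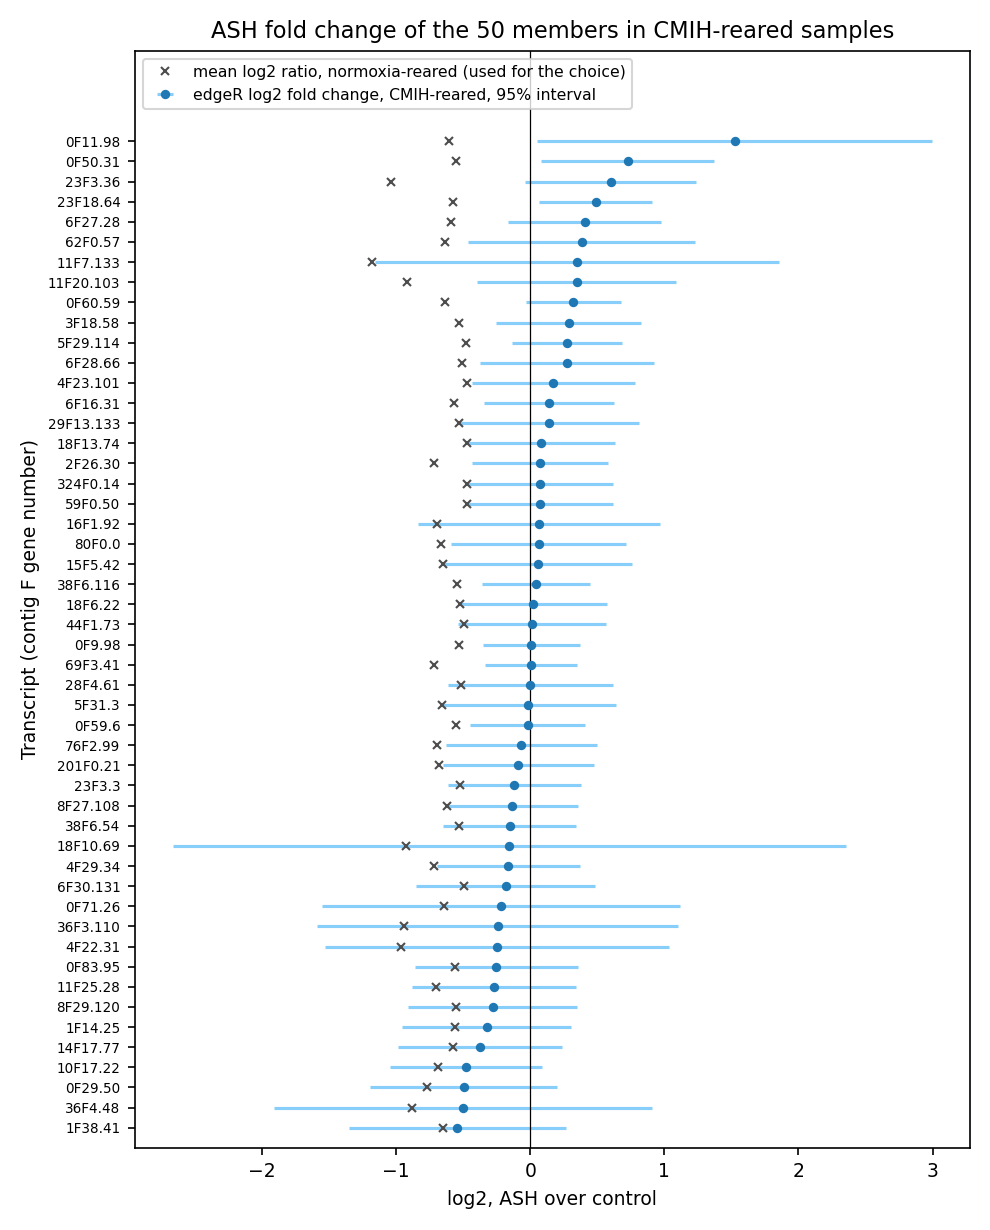
Log2 fold change with ASH of each of the 50 members in the 24 CMIH-reared samples (points, edgeR, with 95% intervals as bars) and the mean log2 ratio of the normoxia-reared samples that chose them (crosses). Every interval but those of 0F11.98, 0F50.31 and 23F18.64 includes 0, and those 3 lie above it before adjustment. Points and crosses differ in scale, since only the crosses hold the added 10 CPM.

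The members with the lowest p among those lower after CMIH were 10F17.22, 0F29.50 and 1F38.41. In 10F17.22 the 12 CMIH-reared controls ranged from 18.2 to 444 CPM with a median of 94.3, and the 12 ASH samples from 40.7 to 296 CPM with a median of 74.8. The transcript was most abundant in HU, where the controls had 333, 444 and 302 CPM and the ASH samples 274, 107 and 296 CPM. The HU groups did not overlap, while those of FI, IL and GB did. The log2 fold change was -0.48 ± 0.27 (SE, unadjusted p = 0.0930, adjusted p = 1), and it lay between -0.68 and -0.24 in 37 alternative fits.

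In 0F29.50 the CMIH-reared controls ranged from 24.4 to 566 CPM with a median of 123, and the ASH samples from 0 to 469 CPM with a median of 96.2. The log2 fold change was -0.50 ± 0.34 (SE, adjusted p = 1). Its log2 ratio was lowest in FI, at -1.46, and above 0 in GB, at 0.31. In 1F38.41 the controls ranged from 30.6 to 251 CPM and the ASH samples from 9.77 to 461 CPM, with medians of 196 and 74.4. Here the lowest ratio was in GB, at -1.30, and the fold change was -0.54 ± 0.39 (SE, adjusted p = 1). In each of these transcripts the range of the ASH samples covered most of the range of the controls.

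The other members lower after CMIH that the ranking by p names had log2 fold changes of -0.38 in 14F17.77, -0.32 in 1F14.25, -0.28 in 8F29.120, -0.27 in 11F25.28, -0.25 in 0F83.95, -0.50 in 36F4.48 and -0.15 in 38F6.54, each with an adjusted p of 1. In 8F29.120, the member with the highest RPKM, the ASH samples of IL had 787, 627 and 907 CPM and its controls 1339, 1706 and 1546 CPM. In GB the ASH samples had 830, 1590 and 1063 CPM and the controls 2073, 1599 and 1636 CPM. It was the only member with all ASH samples under all controls in 2 clones after CMIH. Among the 2442 transcripts this held for 6.31% in IL and 5.16% in GB, each clone taken alone. The share for 2 clones at once is not given here, so that this does not set the member apart from transcripts in general. In FI and HU the groups overlapped, with log2 ratios of 0.58 and -0.22.

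**Figure D3:**
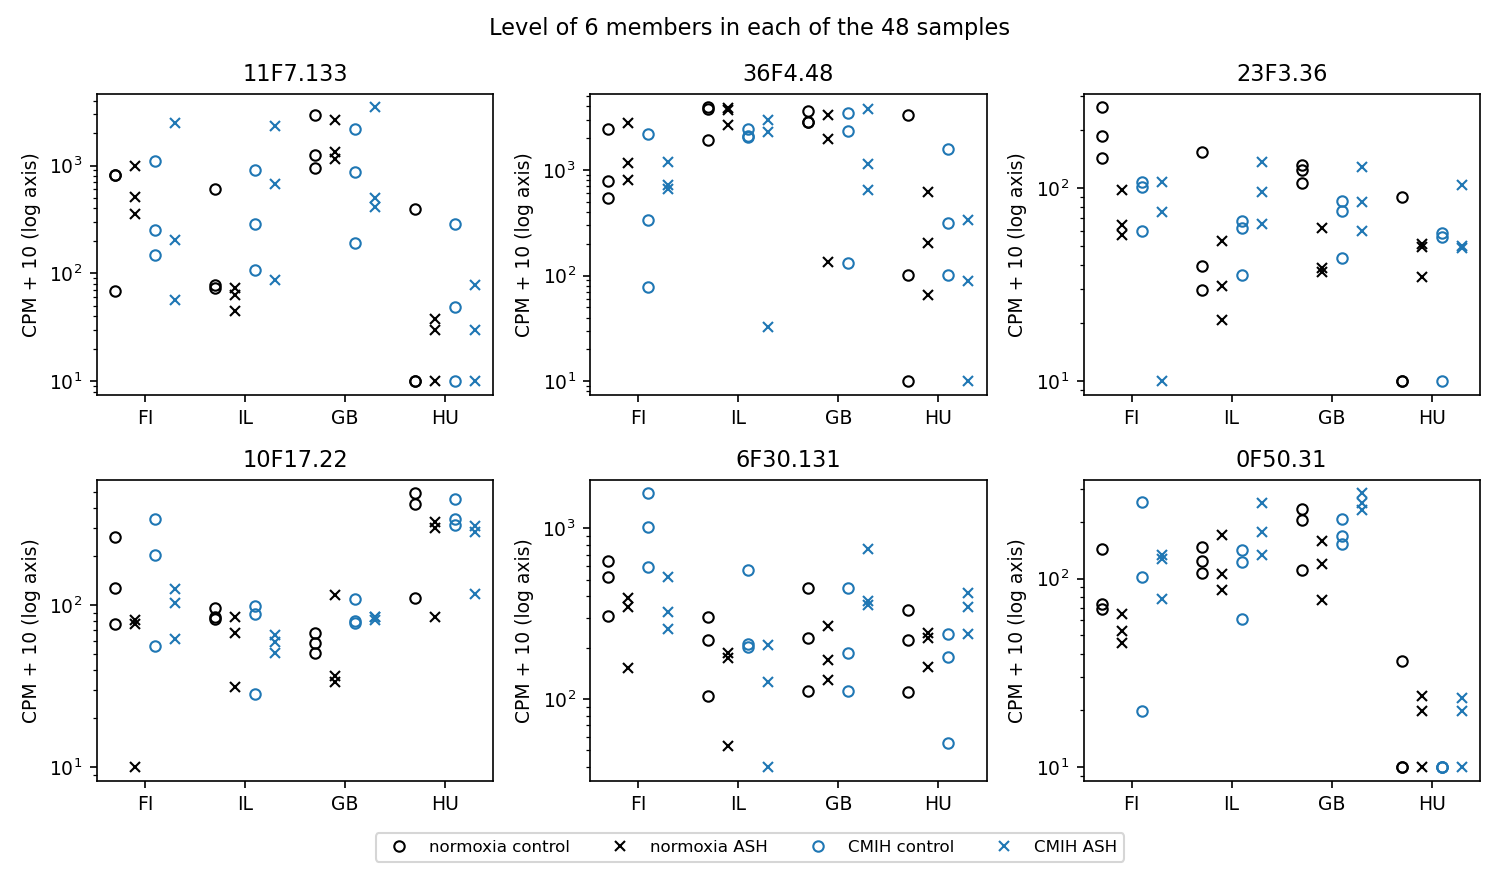
Level of 6 members in each of the 48 samples, as CPM + 10 on a log axis, by clone; circles are controls and crosses ASH samples, in black after normoxia and in blue after CMIH, and a sample with 0 reads lies at 10. In 36F4.48 the normoxia-reared HU controls spread from 0 to 3283 CPM, and 6F30.131 is lower with ASH in FI and higher in GB and HU after CMIH.

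The members with the most positive values after CMIH were 0F11.98, 0F50.31, 23F3.36, 23F18.64 and 6F27.28. In 0F50.31 the CMIH-reared ASH samples of GB had 273, 221 and 241 CPM against 143, 197 and 158 CPM in the controls, without overlap. In IL they had 242, 166 and 123 CPM against 51, 113 and 131 CPM, and in HU at most 13.4 CPM against 0 in the 3 controls. The log2 fold change was 0.73 ± 0.31 (SE, unadjusted p = 0.0287, adjusted p = 1). After normoxia the GB values were 224, 195 and 102 CPM in controls and 110, 66.7 and 148 CPM with ASH. The levels in HU were near the limit of detection throughout.

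In 23F18.64 the CMIH-reared ASH samples of FI had 61.9, 72.4 and 65.2 CPM and the controls 22.8, 48.8 and 39.9 CPM. In IL the ASH samples had 104, 109 and 171 CPM and the controls 89.3, 65.4 and 81.2 CPM. All ASH samples lay above all controls in both clones of intermittent habitats. In FI these values rest on 1, 1 and 4 reads in controls and 2, 17 and 5 with ASH, near the limit of detection. The log2 fold change was 0.49 ± 0.20 (SE, unadjusted p = 0.0247, adjusted p = 1).

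In 0F11.98 the fold change was 1.52 ± 0.71 (SE, unadjusted p = 0.0428, adjusted p = 1), and the ASH samples spread from 3.06 to 245 CPM. Without the clone IL the fold change was 0.06, and without FI it was 2.36. The member 23F3.36, rank 2 by the rule, had log2 ratios of -1.68, -1.18, -1.26 and -0.02 in FI, IL, GB and HU after normoxia and of 0.25, 0.72, 0.36 and 0.57 after CMIH. Its control median was 106 CPM after normoxia and 51.1 CPM after CMIH, and its ASH median 40.6 and 69.9 CPM. The fold change after CMIH was 0.60 ± 0.31 (SE, adjusted p = 1), and that of 6F27.28 was 0.41 ± 0.28 (SE, adjusted p = 1).

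The 10 members first by the rule included several whose replicates varied widely. The spread of log2 level within a CMIH-reared group had a median SD of 0.73 over the members and 0.61 over the 2442 transcripts, and it was 2.28 in 18F10.69, 2.19 in 36F4.48, 2.01 in 11F7.133, 1.94 in 36F3.110 and 1.83 in 4F22.31. These are 5 of the first 7 members. The transcript 11F7.133, rank 1 by the rule, had 804, 799 and 59.2 CPM in the normoxia-reared controls of FI and 346, 981 and 495 CPM with ASH. In HU it had 389, 0 and 0 CPM in controls and 19.9, 27.6 and 0 CPM with ASH. A single control thus set its ratio of -2.12 in HU. After CMIH its log2 ratios in FI, IL, GB and HU were -0.39, 1.86, 0.24 and -1.46.

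The transcript 18F10.69, rank 5 by the rule, had 22.9, 0 and 22872 CPM in the normoxia-reared controls of HU and 3284, 68.9 and 19.9 CPM with ASH. One library therefore held nearly all its reads among the normoxia-reared HU controls, and the share of the members in that library was 3.16% of reads. Outside this clone its normoxia-reared samples had at most 54.5 CPM. After CMIH one control of IL reached 2651 CPM while the 12 controls had a median of 0 CPM.

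The transcripts 4F22.31, 36F3.110 and 36F4.48, ranks 3, 4 and 7 by the rule, varied together. Across the 24 CMIH-reared samples the deviations of their log2 levels from the group means had a Pearson's r of 0.95 for 4F22.31 and 36F4.48, 0.94 for 36F3.110 and 36F4.48 and 0.91 for 4F22.31 and 36F3.110. In the normoxia-reared controls of HU, 36F4.48 had 91.5, 3283 and 0 CPM, 4F22.31 had 22.9, 439 and 0 CPM and 36F3.110 had 22.9, 572 and 0 CPM. The same library was high in all 3 transcripts, and it set their HU ratios of -2.31, -2.48 and -2.29. These points share libraries and depth, and the r values are a description. After CMIH the fold changes were -0.25 ± 0.62, -0.24 ± 0.65 and -0.50 ± 0.68 (SE, adjusted p = 1 for each) for 4F22.31, 36F3.110 and 36F4.48.

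Apart from these transcripts and the pairs that share reads, few members varied together. The pair 8F29.120 and 4F23.101 had an r of 0.84, and 7 of 1225 pairs of members were above 0.8, or 0.571% against 0.444% of the pairs of the 2442 transcripts. The median r was 0.00 over the pairs of members and 0.01 over all pairs. Members on the same contig formed 10 pairs whose gene numbers, before the point, were no more than 2 apart. Positions on the contig were not used. Their r ran from -0.42 for 6F28.66 and 6F30.131 to 0.94 for 36F3.110 and 36F4.48, with a median of 0.00 over these pairs. Among them 6F27.28 and 6F28.66 had 0.57, 38F6.116 and 38F6.54 had 0.42 and 8F27.108 and 8F29.120 had 0.32. The pairs 0F60.59 with 0F59.6, 0F11.98 with 0F9.98, 5F31.3 with 5F29.114, 23F3.36 with 23F3.3 and 4F22.31 with 4F23.101 lay between -0.31 and 0.14.

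The remaining members among the first 10 had smaller within-group SDs than the widely varying ones above. The SD was 1.03 in 0F29.50, 0.95 in 23F3.36, 0.80 in 11F20.103 and 0.54 in 4F29.34. Those of 0F29.50, 23F3.36 and 11F20.103 were still above the median of the members. In 11F20.103 the normoxia-reared controls of IL had 793, 1856 and 1566 CPM and the ASH samples 236, 576 and 326 CPM. After CMIH its log2 ratios in FI, IL, GB and HU were 1.30, -0.19, -0.87 and 1.08, and the groups did not overlap in GB, where ASH was lower, and in HU, where ASH was higher. The transcript 69F3.41 had one of the narrowest spreads, with a within-group SD of 0.32. Its controls ranged from 60.9 to 334 CPM after normoxia and from 67.6 to 215 CPM after CMIH, and its ASH samples from 35.6 to 166 CPM and from 61.9 to 269 CPM. The CMIH fold changes were 0.35 ± 0.36 in 11F20.103, 0.00 ± 0.17 in 69F3.41 and -0.16 ± 0.26 in 4F29.34 (SE, adjusted p = 1 for each).

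The ratios after CMIH are given next by clone. The median log2 ratio of the members for FI, IL, GB and HU was -0.19, -0.06, 0.02 and 0.07, where the 2442 transcripts had 0.03, 0.02, -0.04 and -0.04. It was below 0 for 28, 27, 24 and 23 members in FI, IL, GB and HU, or 56.0%, 54.0%, 48.0% and 46.0%, against 48.4%, 48.1%, 56.3% and 53.4% of the 2442. All 3 ASH samples lay under all 3 controls for 7 members in FI and for 2 each in IL, GB and HU, and the shares among the 2442 transcripts were 10.2%, 6.31%, 5.16% and 3.44%. All 3 lay above the controls for 4, 5, 3 and 3 members, where the shares were 9.17%, 4.91%, 4.38% and 5.04%. In FI that makes 14.0% of the members under the controls, and 8.00% above them. Separate groups were thus found for members about as often as for other transcripts, and in both directions.

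**Figure D4:**
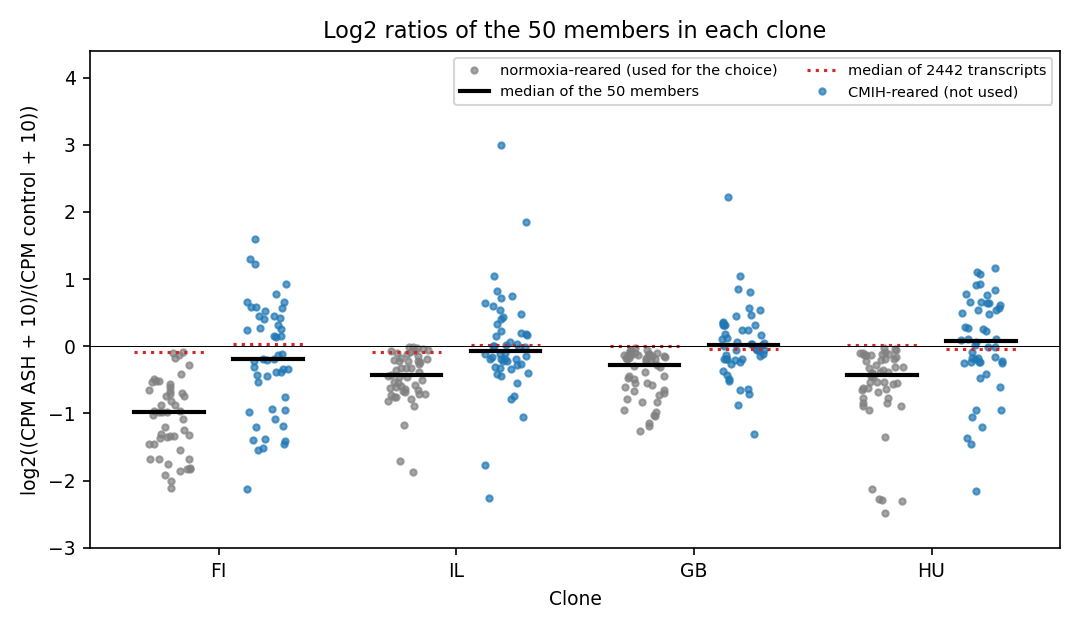
Log2 ratio of ASH to control for each of the 50 members in each clone, after normoxia (grey, used for the choice) and after CMIH (blue, not used); bars are the medians of the members and dotted lines the medians of the 2442 transcripts. After CMIH the members lie on both sides of 0 in every clone, with medians between -0.19 and 0.07.

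Within FI the ratios recurred. Of the 24 members with a log2 ratio of -1 or lower in FI after normoxia, 20 (83.3%) were below 0 in FI after CMIH, with a median of -0.85. This was not particular to the members, since the same held for 237 of the 277 such transcripts among the 2442 (85.6%), with a median of -0.75. In HU it was 5 of 6 members and 142 of 174 transcripts (81.6%). In IL, by contrast, it was 1 of 3 members and 21 of 74 transcripts (28.4%), and in GB 1 of 5 members and 29 of 78 transcripts (37.2%). Spearman's rho between the log2 ratios of a clone after normoxia and after CMIH was 0.59, 0.14, -0.02 and 0.49 for FI, IL, GB and HU over the 50 members and 0.53, 0.20, 0.05 and 0.29 over the 2442 transcripts. The control and ASH samples of the rearing conditions are separate libraries, but those of a clone share its runs, and FI and HU are the shallower clones. Shorter and longer transcripts also differed in these clones, with a Spearman's rho of length with the ratio after CMIH of -0.18 in FI and 0.16 in HU over the 2442 transcripts. The part of depth and length in the recurrence was not tested.

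In FI after CMIH, 6 members had an unadjusted p under 0.05 in edgeR and are named here after their values had been seen. Of these, 11F25.28, 4F29.34, 0F71.26 and 29F13.133 were lower with ASH, and 11F20.103 and 14F17.77 were higher. At the same threshold 3.92% of all transcripts were lower and 6.05% higher in FI, and the members are given as examples only. In 11F25.28 the FI controls had 228, 244 and 239 CPM and the ASH samples 92.9, 46.8 and 26.1 CPM after CMIH, and 317, 333 and 474 CPM against 61.5, 218 and 70.8 CPM after normoxia. The groups did not overlap after CMIH, where ASH lay under the controls in FI for 10.2% of the 2442 transcripts. They did not overlap after normoxia either, but the rule used those values to choose the member. The normoxia values rest on 15, 10 and 8 reads in controls and 13, 4 and 4 with ASH. After CMIH the FI counts of 11F25.28 were 10, 5 and 24 reads in controls and 3, 11 and 2 with ASH. In IL, GB and HU its log2 ratios after CMIH were 0.18, -0.15 and 0.49. The fold change in FI alone was -2.0 ± 0.57 (SE, unadjusted p = 0.00211, adjusted p = 0.170).

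In 0F71.26 the CMIH-reared controls of FI had 91.3, 97.7 and 79.7 CPM and the ASH samples 31.0, 29.8 and 13.0 CPM. These FI values rest on 4, 2 and 8 reads in controls and 1, 7 and 1 with ASH. In HU the order was turned, with 68.5, 153 and 151 CPM in controls and 176, 294 and 229 CPM with ASH. In 4F29.34 the FI controls had 68.5, 195 and 159 CPM and the ASH samples 31.0, 51.1 and 39.1 CPM. Here the reads were 3, 4 and 16 in controls and 1, 12 and 3 with ASH. The fold changes in FI were -1.5 ± 0.57 in 0F71.26, -1.37 ± 0.54 in 4F29.34 and -1.51 ± 0.70 in 29F13.133 (SE), with adjusted p of 0.388, 0.399 and 0.479.

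In 11F20.103 the CMIH-reared controls of FI had 457, 48.8 and 199 CPM and the ASH samples 960, 647 and 430 CPM, with 1 control above 1 ASH sample. The fold change in FI was 1.66 ± 0.58 in 11F20.103 and 1.34 ± 0.63 in 14F17.77 (SE), with adjusted p of 0.323 and 0.481 in edgeR.

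Over the single clones edgeR called 0 members lower in FI, IL, GB and HU, where the shares of all transcripts called lower were 0%, 0%, 0.0165% and 0%. At an unadjusted p under 0.05, the members lower in FI, IL, GB and HU were 4, 2, 0 and 1, against 3.92%, 1.5%, 0.81% and 1.95% of all transcripts. Those higher were 2, 2, 1 and 1, against 6.05%, 2.86%, 2.1% and 2.35%, so that single members lay in both directions. The lower members in IL were 28F4.61 and 6F30.131, and the lower one in HU was 38F6.54. DESeq2 was not run on single clones.

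Whether ASH acted differently in the habitat types or among the clones after CMIH was tested in edgeR as an interaction. For ASHxhabitat 0 members were called, as were 0% of all transcripts, and DESeq2 called 0 as well. At an unadjusted p under 0.05 the ratio was lower in the intermittent-habitat clones for 5 members (10.0%, against 2.41% of all transcripts) and higher for 0, and DESeq2 gave the same counts. The members were 6F30.131, 0F60.59, 0F71.26, 28F4.61 and 8F27.108, and the lowest adjusted p was 0.958. The 2.41% is a share of all 6050 transcripts, whereas the members came from the 2442 with at least 480 reads. The share of all transcripts in the other direction is not given here. FI, an intermittent-habitat clone, held the lowest normoxia ratio of most members, and ratios in FI recurred after CMIH for transcripts in general. The part of this in the count of 5 was not tested. For ASHxclone 0 members and 0% of all transcripts were called, and 6 members (12.0%) had an unadjusted p under 0.05, against 5.9% of all transcripts.

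The widest difference between habitat types was in 6F30.131. Its CMIH-reared controls had 1005, 586 and 1594 CPM in FI and 191, 200 and 558 CPM in IL, and its ASH samples 248, 511 and 313 CPM and 116, 29.9 and 197 CPM. In GB the controls had 440, 101 and 175 CPM and the ASH samples 344, 747 and 364 CPM, and in HU they had 166, 229 and 45.2 CPM against 410, 334 and 229 CPM. The transcript was thus lower with ASH in FI without overlap and in IL with overlap, and higher in GB and HU with overlap. The edgeR coefficient for intermittent minus permanent habitats was -2.58 ± 0.65 on the log2 scale (SE, unadjusted p = 0.000623, adjusted p = 0.958). After normoxia its log2 ratios were -0.74, -0.46, -0.67 and -0.11 in FI, IL, GB and HU.

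In 0F60.59 the GB controls had 38.4, 39.4 and 17.5 CPM and the ASH samples 78.1, 60.5 and 63.2 CPM after CMIH, and in FI the controls had 68.5, 48.8 and 49.8 CPM and the ASH samples 31.0, 38.3 and 39.1 CPM. The groups did not overlap in either clone, and the directions were opposite. In FI, however, the values rest on 3, 1 and 5 reads in controls and 1, 9 and 3 with ASH, near the limit of detection. In 28F4.61 the CMIH-reared controls of IL had 319, 341 and 283 CPM and the ASH samples 208, 177 and 134 CPM. Here the clones of permanent habitats had log2 ratios of 0.31 in GB and 0.64 in HU. None of these differences between clones passed the adjustment.

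Seen over the 4 conditions, the members differed most between control and ASH after normoxia, the contrast that chose them. The level of each member relative to its mean over the conditions, averaged over clones as log2(CPM + 10), had a median of 0.29 in normoxia-reared controls, -0.32 in normoxia-reared ASH samples, 0.03 in CMIH-reared controls and 0.02 in CMIH-reared ASH samples. The normoxia-reared controls were highest for 41 members and the normoxia-reared ASH samples lowest for 40. The CMIH-reared controls lay between these for 39 members, and the CMIH-reared ASH samples for 36. The normoxia-reared values had been picked to lie apart, and no test was made of this order.

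**Figure D5:**
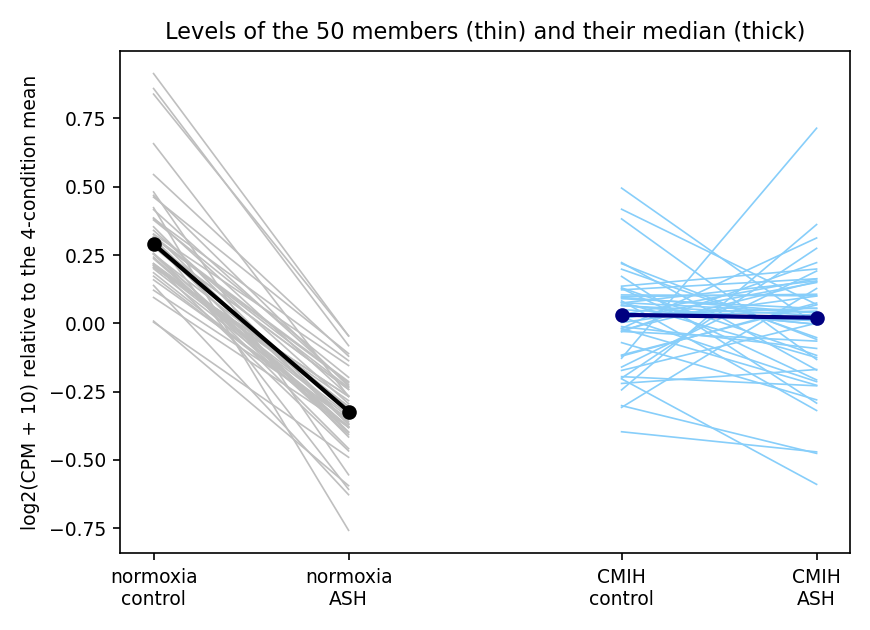
Level of each of the 50 members (thin lines) and their median (thick lines) in the 4 conditions, as log2(CPM + 10) averaged over the clones and relative to the mean of the conditions. The medians are 0.29 and -0.32 after normoxia, where the members were chosen, and 0.03 and 0.02 after CMIH.

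The reads of all 50 members together made up 1.47% ± 0.16 (SD, n = 3) of the reads in the normoxia-reared FI controls and 0.867% ± 0.15 with ASH. In the CMIH-reared samples they made up 1.17% ± 0.10 in FI controls and 1.03% ± 0.02 with ASH, 1.33% ± 0.10 and 1.15% ± 0.06 in IL, 1.22% ± 0.06 and 1.18% ± 0.12 in GB, and 0.934% ± 0.05 and 1.02% ± 0.05 in HU (SD, n = 3 for each). The mean share was lower with ASH in 3 clones after CMIH and higher in HU, with no test made of it.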

How the data were processed

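RNA was measured in 48 samples. The authors aligned basecalled Nanopore reads with a reference transcriptome, 1 isoform per gene, and deposited raw read counts and RPKM for the 6050 transcripts with at least 72 reads. The deposited counts gave all ratios and tests, and the RPKM deposited by the authors only levels per length. Groups came from the labels. Counts of the 24 CMIH-reared samples were fitted with edgeR 4.0.16 (TMM, quasi-likelihood F test) and, as an alternative, DESeq2 1.42.0, in R 4.3.3. Adjustment ran over all 6050 transcripts, with 0.05 as threshold. Standard errors were derived from the fold change and p. The steps were tested on simulated data, with planted changes larger than the median of the members and, for the rule, libraries of equal depth. Whether decreases as small as those of most members would be chosen or called was not tested. Alternatives were other scalings, read minimums, dispersions and pseudocounts, and each clone or sample left out. The members and all lists were chosen with earlier results of these data known. Transcripts named are the first 10 by the rule and the 10 with the lowest p among those lower after CMIH. Also named are the 5 with the highest mean ratio there, those at the end of the list, and members close in gene number on a contig. Intervals cover counting and replicate error of these pools only. Figures used Python 3.11.15 and matplotlib 3.10.9.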

Additional observations from a re-analysis of the deposited data

How the results depend on the processing

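Members called lower or higher with ASH after CMIH stayed at 0 in 37 alternative fits each, and members called for ASHxhabitat at 0 in 29. The median log2 ratio after CMIH lay between -0.11 and 0.04 in 34 alternatives, and between -0.11 and 0.02 with single samples left out. The counts given next without a clone ask for a ratio below 0 in only 3 clones, which more transcripts can meet. The share of the 2442 transcripts that meets this is not given here. Members below 0 in all clones were 1 as reported, 3 with the mean of the 3 CPM values, 2 with libraries of at least 50000 reads (chosen after seeing the data), 8 without FI, 3 without IL, 5 without GB and 3 without HU, where only 3 clones remain, and 0 to 3 with a sample left out (0 without replicate 12 of the GB controls, 2 without replicate 10 or 12 of the FI controls or replicate 6 of the IL ASH samples, 3 without replicate 5 of the FI ASH samples, replicate 4 of the GB ASH samples or replicate 10 of the GB controls). Of the 50 members, the rule kept 25 with the mean of CPM values, 33 with TMM-scaled library sizes, 25 with 240 reads, 26 with 960 reads, 33 to 48 with a sample left out (33 without replicate 5 of the normoxia-reared HU controls) and 1 when applied to the CMIH-reared samples. The lists chosen so from normoxia-reared samples, the 25 or 100 lowest included, had median log2 ratios after CMIH from -0.06 to -0.03. Calls among the 50 transcripts chosen at the other end were 14 as reported, 6 without FI, 6 without GB and 9 to 15 with a sample left out, the 9 without replicate 4 of the GB ASH samples or replicate 11 or 12 of the GB controls. The causes were not tested. No paired analysis was possible because samples compared within a clone share no replicate number, and which of them went into the same library is not given in the labels. Single transcripts with fewer than 20 reads in a pooled group limit what FI can show.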
